A study of Rattus norvegicus with 12 samples.

Results

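Cd52 and Clca1 are 2 of the 11862 genes and unnamed probes tested in rat mammary terminal end buds. Both were selected on their measured signal at 35 days of age, which was far higher after a low neonatal dose of diethylstilbestrol (DES, a synthetic estrogen) than in controls, while a high dose gave no such rise. The rule set no threshold. At 35 days, Clca1 was 14.1-fold and Cd52 6.61-fold higher after DES 1 µg than after oil, which ranked 12 and 23 among 11862 fitted rises. These values chose the genes and are given as a description. The arrays at 49 days came from other animals and carry the tests. The rise of Cd52 at 49 days was already known when the genes were chosen, so its test is not independent of the choice.

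Terminal end buds are the club-shaped growing tips of the ducts in the immature mammary gland. They were cut by laser from toluidine blue stained frozen sections of abdominal glands of female inbred Sprague-Dawley rats. Newborns had been injected once under the skin, within 24 hr of birth, with sesame oil alone, with DES 1 µg or with DES 100 µg in that oil, and all groups share the oil and the injection. Rats were killed for sampling at 35 or at 49 days, with 2 rats and 2 arrays in each of the 6 groups, so n = 2 arrays a group throughout. RNA of each rat was amplified and hybridized to a 1-colour Agilent array. A level below is the signal of a probe divided by the median of all probes on that array. Levels of different probes were not set against each other. Where groups are said not to overlap, this is a description. With 2 arrays a group it can occur without any difference, and its share over all genes was not computed.

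Cd52 encodes a very short surface glycoprotein, held in the membrane by a glycosylphosphatidylinositol (GPI) anchor. It is known from lymphocytes and monocytes, and from the epithelium of the male reproductive tract. Clca1 encodes a secreted protein of the CLCA family, which increases calcium-activated chloride currents. In human and mouse it is best known from the mucus-producing goblet cells of airway and gut, and other CLCA genes of the mouse were described in mammary epithelium. Each gene had 1 probe with 1 spot, which was saturated on 0 arrays. The Cd52 probe lies at chr5:152853062-152853121 and was matched by its transcript accession. The Clca1 probe lies at chr2:243044927-243044986 and carries the older name Clca3, which the RefSeq gene table lists for Clca1. The build of these positions and the exon each probe lies in remain not given in the sources used here. Only that older symbol ties the probe to Clca1.

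The promoters of both genes are shown because the genes were picked for rising together after an estrogen. Each runs from 250 bases before to 50 after the gene's start, on the minus strand of GRCr8, as RefSeq gives it. Capitals mark a GAS element (TTCNNNGAA, the site of STAT factors) in Cd52 at chr5:151605047-151605346, and the single arm (GGTCA) of an estrogen response element in Clca1 at chr2:236624665-236624964.
Cd52: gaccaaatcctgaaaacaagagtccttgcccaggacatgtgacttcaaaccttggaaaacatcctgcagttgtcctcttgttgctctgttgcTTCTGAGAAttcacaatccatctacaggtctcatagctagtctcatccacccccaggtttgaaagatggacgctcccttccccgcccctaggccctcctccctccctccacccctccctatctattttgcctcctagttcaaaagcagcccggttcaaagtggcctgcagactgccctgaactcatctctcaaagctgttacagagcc
Clca1: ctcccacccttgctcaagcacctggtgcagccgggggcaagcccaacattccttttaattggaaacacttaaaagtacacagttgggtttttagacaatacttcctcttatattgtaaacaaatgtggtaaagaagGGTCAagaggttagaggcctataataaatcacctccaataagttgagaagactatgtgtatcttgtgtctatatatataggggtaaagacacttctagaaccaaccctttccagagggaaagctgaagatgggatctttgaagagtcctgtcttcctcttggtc
The Cd52 window has a GC content of 51.7% with 3 CG pairs, and the Clca1 window 42.0% with 1, against medians of 52.3% and 7 over 27457 rat promoters of the same length. Both strands were searched. No full estrogen response element, a pair of such arms facing each other, was found in either window, and 0.025% of all promoters hold one. The single arm in Clca1, which the full element contains, starts at position -114 from the gene's start and occurs in 40.2% of promoters. Cd52 held none. The GAS element of Cd52 starts at -158, occurs in 8.68% of promoters and was not found in Clca1. TATAAA, found in 14.3% of promoters, was in neither. These are matches of letters only.

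The oil arrays at 49 days stood apart from the rest before any gene was compared. The 75th percentile of signal was 155 and 142.5 there, while the other 10 arrays lay between 210 and 333, and 47.2% of probes were detected on both of them, against 57.4% to 61.5% in the other groups. The lowest level called detected there was 1.04 and 1.03, while it was 0.214 to 0.368 elsewhere. No scan day is known for them, so scan day cannot be told apart from treatment and age there. Comparisons between the doses do not use them. As to tissue, 9 of 13 luminal epithelium genes on the array were detected in every group, but genes of adipocytes, endothelium, fibroblasts and leukocytes were detected too. The luminal genes Elf3, Foxa1, Esr1 and Tnfsf11 were not detected on both arrays of any group. Of these, Esr1, the estrogen receptor, and Tnfsf11 were not above background on any array.

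Cd52 followed the same order at both ages, highest after DES 1 µg, intermediate after oil and lowest after DES 100 µg. At 35 days, its level was 5.82 and 6.26 after DES 1 µg and 0.780 and 1.07 after oil. After DES 100 µg it was 0.267 and 0.50, and the first of these was not well above background. The 3 treatments did not overlap at this age, and the low-dose arrays lay well clear of the others. The low dose exceeded oil by 2.72 ± 0.29 (log2 difference ± SE), or 6.61-fold. The high dose was 2.50-fold below oil (-1.32 ± 0.29), with 1 of its 2 arrays measuring the gene (-0.87 without the array that did not), and 16.5-fold below the low dose (-4.05 ± 0.29, or -3.59 without that array).

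At 49 days, in other rats, the treatments stood in the same order for Cd52. Its rise after DES 1 µg at this age was known when the genes were chosen. Its level was 14.3 and 13.0 after DES 1 µg and 2.68 and 3.20 after oil. After DES 100 µg it was 0.559 and 0.692, above background on both arrays. Every low-dose array was above every oil array, and every high-dose array below them. Cd52 rose 4.65-fold after DES 1 µg (log2 2.22 ± 0.29, limma adjusted p = 0.0018, higher on 2 of 2 arrays), in a comparison where 31.8% of all genes tested passed, 12.7% higher and 19.1% lower. It fell 4.70-fold after DES 100 µg (-2.23 ± 0.29, limma adjusted p = 0.0022, lower on 2 of 2 arrays), where 25.1% passed, 11.0% higher and 14.2% lower. Both comparisons share the oil arrays. Scaling to the 75th percentile turned the split of all calls from 1507 higher and 2269 lower to 1988 and 1768 for the low dose, and from 1300 and 1683 to 1739 and 1257 for the high dose. Between the doses, Cd52 was 21.9-fold lower after DES 100 µg (-4.45 ± 0.29, limma adjusted p = 0.00015), where 6.79% of genes passed, 3.63% higher and 3.17% lower. The 49-day result against oil for the high dose lost its call with array signal as a covariate (-1.54, adjusted p = 0.078), and the difference between doses lost it with scan day as a block, a fit with 1 residual degree of freedom (-4.57, adjusted p = 0.32). Under normexp background correction, which adds an offset to dim signals, the difference between doses was -2.40 at 49 days and -1.87 at 35 days, and at 35 days the low dose differed from oil by 1.47 and the high dose by -0.40.

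Clca1 was also highest after DES 1 µg at both ages, but the treatments were much closer together at 49 days than at 35 days. At 35 days its level was 1289.7 and 1205 after DES 1 µg, 100 and 78.2 after oil, and 51.8 and 51.2 after DES 100 µg. The treatments did not overlap, and the low-dose arrays stood far above both other treatments. The log2 difference of the low dose from oil was 3.82 ± 0.13, or 14.1-fold. The high dose was 1.72-fold below oil (-0.78 ± 0.13) and 24.2-fold below the low dose (-4.60 ± 0.13).

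At 49 days the level of Clca1 was 366 and 385 after DES 1 µg, 200.6 and 189 after oil, and 253 and 266 after DES 100 µg. Both doses now lay above oil with no overlap, and the low dose lay above the high dose. Before scaling, the signal was 8630 and 9510 after DES 1 µg and 9410 and 6730 after DES 100 µg, so the lack of overlap between the doses rests on the scaling. Clca1 rose 1.93-fold after DES 1 µg (log2 0.95 ± 0.13, limma adjusted p = 0.0024, higher on 2 of 2 arrays). The difference of the high dose from oil was 0.41 ± 0.13, or 1.33-fold, and did not pass (limma adjusted p = 0.052). The high dose against the low dose stood at -0.53 ± 0.13, or 1.45-fold lower, and did not pass either (limma adjusted p = 0.051). These last calls sit at the threshold: over the alternatives run, the adjusted p ranged from 0.012 to 0.49 for the high dose against oil and from 0.026 to 0.43 between the doses. With array signal as a covariate the high dose was 0.24 from oil.

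**Figure D1:**
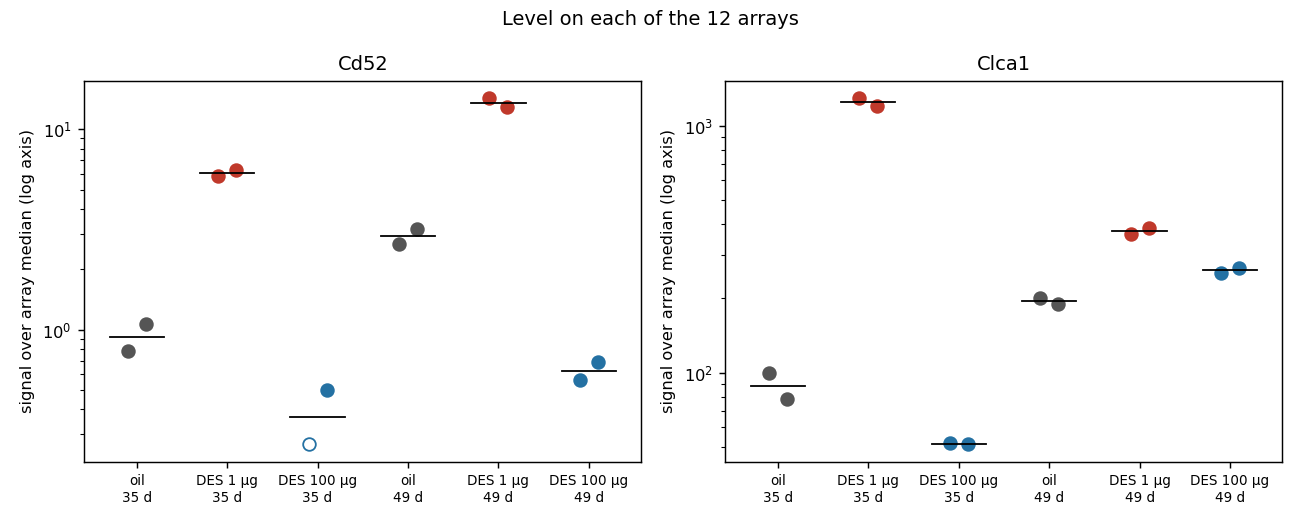
Signal over the array median on a log axis for Cd52 (left) and Clca1 (right), with a point for each of the 12 arrays, a line at the geometric mean of each group and an open point where the probe was not well above background. The DES 1 µg arrays are the highest of their age for both genes, and for Clca1 the treatments span 51.2 to 1289.7 at 35 days but 189 to 385 at 49 days.

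The genes differed in how the levels moved with age, which is described without a test because the 35-day arrays chose the genes. Cd52 was higher at 49 than at 35 days, 3.20-fold in oil (1.68 ± 0.29) and 2.25-fold after DES 1 µg (1.17 ± 0.29). After DES 100 µg the level was 0.50 on the 1 array at 35 days that measured the gene, against 0.559 and 0.692 at 49 days. Clca1 was 2.20-fold higher at 49 days in oil (1.14 ± 0.13) and 5.04-fold higher after DES 100 µg (2.33 ± 0.13). After DES 1 µg it was 3.32-fold lower at 49 days (-1.73 ± 0.13). The rises in oil use the 49-day oil arrays, whose medians were 16.4 and 15.3, against 35.4 and 29.4 in oil at 35 days. Before scaling, Clca1 signal in oil was 3540 and 2300 at 35 days and 3290 and 2890 at 49 days, so its rise in oil rests on the scaling. For Cd52 the unscaled values were 27.6 and 31.5, then 43.9 and 48.9. No alternatives were run for the differences between ages. The highest and lowest group means of Clca1 were 24.2-fold apart at 35 days and 1.93-fold apart at 49 days. For Cd52 they were 21.9-fold apart at 49 days, and at 35 days the lowest group had 1 array that was not above background.

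Ordered by geometric mean over all 6 groups, Cd52 ran from 13.6 (DES 1 µg, 49 days) through 6.04 (DES 1 µg, 35 days), 2.93 (oil, 49 days), 0.914 (oil, 35 days) and 0.622 (DES 100 µg, 49 days) to 0.365 (DES 100 µg, 35 days). No group overlapped its neighbour in this order, but the share of all genes for which this holds was not computed. The Clca1 order began with 1247 (DES 1 µg, 35 days), 375 (DES 1 µg, 49 days) and 259 (DES 100 µg, 49 days). It went on with 195 (oil, 49 days), 88.4 (oil, 35 days) and 51.5 (DES 100 µg, 35 days), again with no overlap between neighbours. Both genes had their lowest level after DES 100 µg at 35 days. The low dose at 35 days headed the order for Clca1 and came behind the low dose at 49 days for Cd52.

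**Figure D2:**
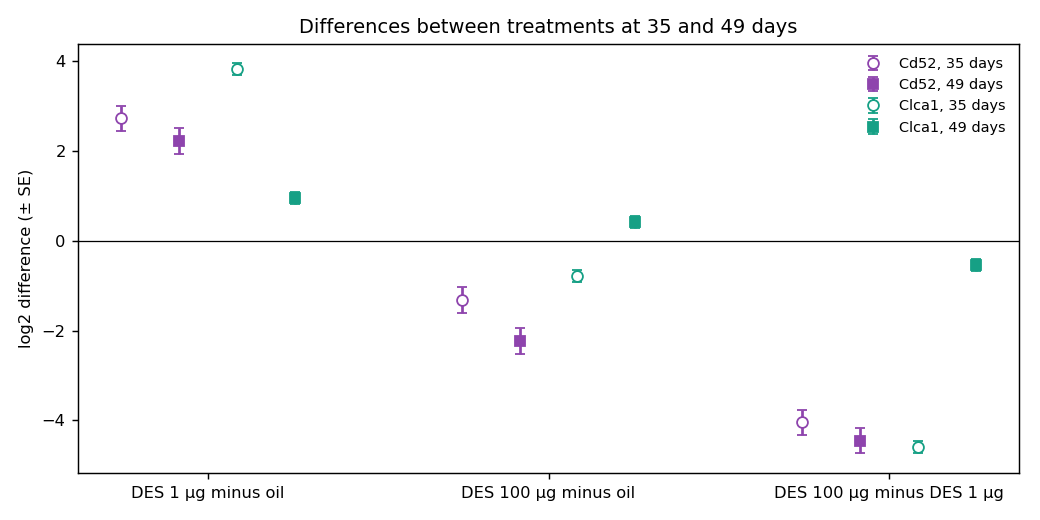
Log2 differences between treatments at 35 days (open circles) and 49 days (filled squares) for Cd52 and Clca1, with bars for the SE. Cd52 lies at 2.72 and 2.22 for DES 1 µg minus oil, while Clca1 lies at 3.82 and 0.95, and for DES 100 µg minus oil Clca1 lies at -0.78 at 35 days and 0.41 at 49 days.

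Some pairs of arrays were scanned on the same day, which gives the differences within a day. On such days Cd52 differed by 2.90 between the low dose and oil at 35 days, by -3.65 between the high and low dose at 35 days, and by -4.23 between these doses at 49 days. Clca1 differed by 3.69, -4.56 and -0.53. Each of these is 1 array against 1 array. Since the groups do not overlap, their sign was fixed. In the authors' deposited table for each dose and age, which lists probes changed at least 2-fold, the value for Cd52 is 6.639 and 0.401 at 35 days for the low and high dose over oil, and 4.65 and 0.213 at 49 days. Clca1 is in the authors' deposited table for the low dose at 35 days alone, at 14.16.

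Genes whose log2 levels followed those of the chosen genes most closely over the 12 arrays were ranked by Pearson correlation among 5625 named genes tested. The points share the 6 groups, the arrays and the scaling, so the correlations are descriptions. For Cd52 they were Rbp4 (r = 0.97), which carries retinol, Ripply3 (r = 0.95), a transcriptional corepressor, and Cercam (r = 0.93), named as an adhesion molecule of brain endothelium. Plxnd1 (r = 0.91), a semaphorin receptor, and Sod3 (r = 0.90), the extracellular superoxide dismutase, followed. The group means of Rbp4 ran from 4.03 after DES 100 µg at 35 days to 5.25 after DES 1 µg at 49 days on the log2 scale, a far narrower range than that of Cd52, from -1.45 to 3.77. All 5 genes had their highest mean after DES 1 µg at 49 days, as Cd52 did, which their choice by correlation favours.

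For Clca1 the closest were Fibin (r = 0.97), a secreted protein, Sfrp2 (r = 0.96), a modulator of Wnt signalling, and Rasip1 (r = 0.95), a vascular regulator. Col15a1 (r = 0.94), a basement membrane collagen, and Thbd (r = 0.94), the thrombin receptor thrombomodulin, came next. Thbd was detected in 5 of the 6 groups. All 5 had their highest mean after DES 1 µg at 35 days, as Clca1 did, which the choice by correlation again favours. Within the 6 arrays at 49 days, r with Clca1 was 0.98 for Sfrp2, 0.94 for Fibin and 0.92 for Thbd, but 0.63 for Col15a1 and 0.44 for Rasip1. Group means of Clca1 spanned 5.69 to 10.28 on the log2 scale, and those of Sfrp2 -0.18 to 2.46.

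**Figure D3:**
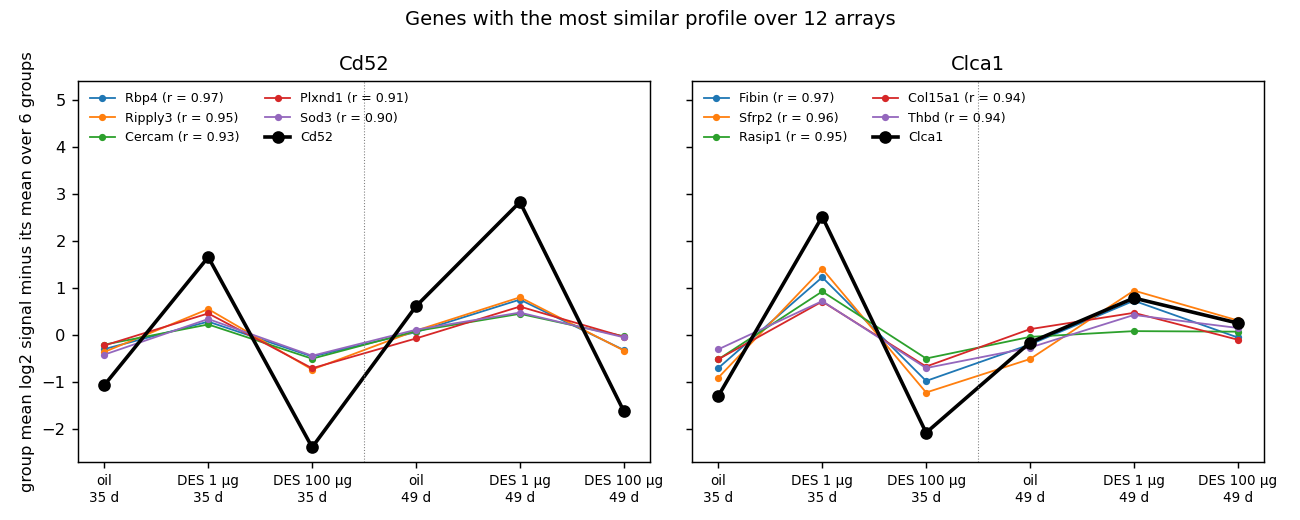
Group means of log2 signal, each minus the gene's mean over the 6 groups, for Cd52 and Clca1 (black) and the 5 genes with the highest Pearson r to each over 12 arrays. The neighbours, chosen for this likeness, share the peaks after DES 1 µg but move over a narrower range than Cd52 (-1.45 to 3.77 before centring) and Clca1 (5.69 to 10.28).

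Of the CLCA family, Clca1 was the 1 gene detected. Clca4 and Clca5, which lie near Clca1 on chromosome 2, had probes that were not above background in any group, with levels of 0.01 to 0.0387 and 0.01 to 0.0669 of the array median. Clca2 and Clca4l were not matched to a probe. Among other chloride channels and transporters, 9 of 16 genes on the array were tested, and Cftr, the channel mutated in cystic fibrosis, was not above background on any array. After DES 1 µg at 49 days, 0 of these 9 rose and 3 fell (median -0.32, against -0.09 over all genes), a share near the 31.8% of all genes that passed. Those were Kcnn4, a calcium-activated potassium channel (-1.03 ± 0.14, limma adjusted p = 0.0024), the chloride importer Slc12a2 (-0.65 ± 0.12, limma adjusted p = 0.0063) and the anion exchanger Slc4a2 (-2.38 ± 0.53, limma adjusted p = 0.013). After DES 100 µg against oil at that age 0 rose and 2 fell, against 14.2% of all genes lower. They were Slc12a2 (-0.52 ± 0.12, limma adjusted p = 0.016) and Slc4a2 (-2.19 ± 0.53, limma adjusted p = 0.021). Both comparisons use the 49-day oil arrays, where the summed level of the 16 genes was 486 to 585, against 154 to 177 in oil at 35 days. Kcnn4 was higher after the high dose than after the low dose at 49 days (0.79 ± 0.14, limma adjusted p = 0.017). That was 1 of 9 higher and 0 lower, against 3.63% of all genes higher and 3.17% lower. At 35 days Slc12a2 was lower after the low dose than after oil (-0.86 ± 0.12, limma adjusted p = 0.0042), 1 of 9, or 2 of 9 with the 49-day oil arrays left out of the fit, where 7.42% of all genes passed, 3.17% higher and 4.25% lower.

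Genes of mucus and goblet cells were few beside Clca1. Of 23 in the list, 10 had a probe and 4 were tested, and Tff1, Tff2, Muc13 and Foxa3 were not above background on any array. Against oil at 49 days, 0 of the 4 passed after DES 1 µg (median 0.11, or -0.25 over the 3 detected in both groups). After DES 100 µg, 1 rose, not detected in both groups, and 1 fell. Of all genes, 12.7% rose and 19.1% fell after DES 1 µg, and 11.0% rose and 14.2% fell after DES 100 µg. Gcnt3, which builds branched mucin glycans, went opposite to Clca1: it was 14.3-fold lower after DES 1 µg than after oil at 35 days (-3.84 ± 0.26, limma adjusted p = 0.00017). It was also higher after the high than after the low dose at 49 days (2.56 ± 0.26, limma adjusted p = 0.0013). Muc1, a membrane mucin, rose after DES 1 µg at 35 days (1.00 ± 0.18, limma adjusted p = 0.016). It was lower after the high than after the low dose at 49 days (-0.81 ± 0.18, limma adjusted p = 0.039), a call lost when the 49-day oil arrays were left out of the fit.

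For Cd52, GPI-anchored surface proteins and leukocyte genes were set beside it. Of 18 tested genes for GPI-anchored proteins, 5 rose, 4 of them detected in both groups, and 4 fell after DES 1 µg at 49 days (median -0.05), and 0 rose and 2 fell after the high dose against the low dose (median -0.11). Of all genes, 12.7% rose and 19.1% fell in the first comparison, and 3.63% rose and 3.17% fell in the second. The 2 that fell after the high dose against the low dose were Folr2, a folate receptor of macrophages (-1.02 ± 0.13, limma adjusted p = 0.0042), and Cd48, a leukocyte receptor (-0.99 ± 0.21, limma adjusted p = 0.029). Both had risen after DES 1 µg against oil, Folr2 by 0.94 ± 0.13 (limma adjusted p = 0.0024) and Cd48 by 0.65 ± 0.21 (limma adjusted p = 0.046). These differences were smaller than that of Cd52 in the same comparisons, at 2.22 and -4.45. After DES 1 µg at 35 days 3 of the 18 rose and 2 fell, which became 1 and 1 with the 49-day oil arrays left out of the fit. Of all genes, 3.17% rose and 4.25% fell there. Gfra1, a receptor part for GDNF, rose (1.11 ± 0.10, limma adjusted p = 0.00063), while Msln, or mesothelin, fell (-1.99 ± 0.21, limma adjusted p = 0.0014), as did Folr2 (-0.59 ± 0.13, limma adjusted p = 0.034). Between the doses at 35 days 5 were higher after the high dose and 3 lower, Gfra1 among the latter (-1.41 ± 0.10, limma adjusted p = 0.00015). Of all genes, 4.15% were higher and 3.85% lower.

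Some pan-leukocyte genes were called lower at 35 days after either dose. At 49 days, 2 of 12 rose and 0 fell after DES 1 µg (median 0.32), of which 1 was detected in both groups, and between the doses 1 rose and 1 fell (median -0.20). Of all genes, 12.7% rose after DES 1 µg, and 3.63% rose and 3.17% fell between the doses. At 35 days, where Cd52 was higher after the low dose, 0 rose and 2 fell, against 4.25% of all genes lower. They were Coro1a (-0.69 ± 0.11, limma adjusted p = 0.0089) and Cd53 (-0.83 ± 0.20, limma adjusted p = 0.047), which both act in blood cells. After DES 100 µg at 35 days, where Cd52 was lowest, 0 rose and 3 fell, against 0.877% of all genes lower. They were Coro1a (-0.66 ± 0.11, limma adjusted p = 0.032), Laptm5 (-0.75 ± 0.13, limma adjusted p = 0.036) and Lsp1 (-0.64 ± 0.12, limma adjusted p = 0.048), and this count was 0 with the 49-day oil arrays left out of the fit. The summed level of the 13 pan-leukocyte genes on the array was 235 to 261 after DES 1 µg, 239 to 246 after DES 100 µg and 285 to 300 after oil at 35 days. At 49 days it was 318 to 328 after DES 1 µg, 288 to 300 after oil and 282 to 285 after DES 100 µg. The low-dose arrays were thus below oil at 35 days and above it at 49 days, the high-dose arrays were below oil at both ages, and the part of leukocyte RNA in the Cd52 result was not tested. In bulk RNA, fewer cells of a type and less RNA per cell cannot be told apart.

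T and NK cells carry Cd52 in blood, and their genes were measured in part. Of 20 on the array 13 were tested, and Cd2, Cd3e, Cd4, Cd8a, Cd28, Il7r and Klrd1 were not above background on any array. Their summed level was 18.9 to 19.1 after DES 1 µg at 49 days, when Cd52 was highest, and 28.0 to 29.3 after DES 100 µg, when Cd52 was lowest of that age. Of all genes, 3.63% were higher after the high than after the low dose at 49 days. Among these 13, 2 were higher after the high dose and 0 lower (median 0.50, against 0.02 over all genes). They were Gzma, a granzyme of killer cells (1.51 ± 0.19, limma adjusted p = 0.0037), and Cd7 (0.66 ± 0.15, limma adjusted p = 0.039). Against oil at 49 days, 2 of 13 rose and 1 fell after DES 1 µg, of which 0 were detected in both groups, and 5 rose after DES 100 µg, of which 2 were. Of all genes, 12.7% rose and 19.1% fell after DES 1 µg, and 11.0% rose after DES 100 µg. At 35 days 0 rose and 4 fell after DES 1 µg, 3 of them detected in both groups, and 1 fell with the 49-day oil arrays left out of the fit. Of all genes, 4.25% fell after DES 1 µg at 35 days and 0.877% after DES 100 µg. After DES 100 µg at 35 days, where Cd52 was lowest, 0 rose and 2 fell (median -0.54), Il2rb, a chain of the interleukin-2 receptor (-1.75 ± 0.16, limma adjusted p = 0.0025), and Cd3g (-1.24 ± 0.19, limma adjusted p = 0.022). The summed level at that age was 17.6 to 17.7 after DES 1 µg, 14.3 to 15.4 after DES 100 µg and 21.6 to 23.9 after oil. It was thus lowest in the group with the lowest Cd52 at 35 days, and highest in the group with the lowest Cd52 at 49 days, and its part in the Cd52 result was not tested.

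The other blood cell lists were short. Of B and plasma cell genes, 2 of 6 on the array were tested, and Cd79b and Tnfrsf17 were not above background on any array. None of the 2 passed at 49 days. Of all genes, 31.8% passed there for the low dose against oil, 25.1% for the high dose and 6.79% between the doses. Jchain, which links polymeric immunoglobulins, fell after DES 1 µg at 35 days (-1.22 ± 0.18, limma adjusted p = 0.0062), where 4.25% of all genes were lower. It also fell after DES 100 µg at 35 days (-1.61 ± 0.18, limma adjusted p = 0.0062), where 0.877% were. Of 11 macrophage and dendritic cell genes, 1 rose after DES 1 µg at 49 days (C1qb, 0.66 ± 0.17, limma adjusted p = 0.023), against 12.7% of all genes. Between the doses 0 passed, against 6.79% of all genes. The summed level of this list was 259 to 263 after DES 1 µg and 422 to 456 after oil at 35 days, opposite in order to Cd52. In that comparison 0 of them were higher and 2 lower, against 4.25% of all genes lower. The sum was 274 to 296 after DES 100 µg at 35 days, also with 0 higher and 2 lower, against 0.877% of all genes lower. Of 6 granulocyte and mast cell genes, 3 rose after DES 1 µg against oil at 49 days, 1 of them detected in both groups, against 12.7% of all genes higher. Between the doses 2 were lower after the high dose, against 3.17% of all genes lower, and with the 49-day oil arrays left out of the fit 1 was lower and 1 higher. Their summed level at 49 days was 60.6 to 63.7 after DES 1 µg, 32.3 after oil on both arrays and 24.0 to 30.4 after DES 100 µg, in the order of Cd52. At 35 days it was 44.4 to 49.1 after DES 1 µg, 44.2 to 46.2 after DES 100 µg and 32.9 to 33.3 after oil. There the high dose lay above oil, unlike Cd52. The part of this sum in the Cd52 result was not tested. Cma1, a mast cell protease of this list, differed at 49 days by 1.66 ± 0.18 for DES 1 µg against oil (limma adjusted p = 0.00099). Between the doses it differed by -2.03 ± 0.18 (limma adjusted p = 0.00078), both in the same directions as Cd52.

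Stromal genes moved in the direction of both genes after the low dose, at both ages. At 35 days, with DES 1 µg against oil, 5 of 6 endothelium genes (median 1.08), 4 of 6 adipocyte genes (median 0.71) and 4 of 7 fibroblast genes (median 0.68) were higher and 0 lower, against a median of -0.03 and 3.17% higher over all genes. At 49 days the counts were 4 of 6 higher with Vwf lower, 5 of 6 and 6 of 7, with medians of 0.62, 1.13 and 1.07, against 12.7% of all genes higher. Of the 6 fibroblast genes 5 were detected in both groups. Between the doses at 49 days, 3 of 6, 4 of 6 and 2 of 7 were lower after the high dose and 0 higher, against 3.17% of all genes lower. With the 49-day oil arrays left out of the fit, these counts were 2, 4 and 2. Emcn, an endothelial surface mucin, differed by 2.05 ± 0.15, 1.51 ± 0.15 and -1.01 ± 0.15 in these comparisons (limma adjusted p = 0.00020, 0.00074 and 0.0071). After DES 100 µg against oil at 49 days, where Cd52 fell, 1 of 6 endothelium, 3 of 6 adipocyte and 2 of 7 fibroblast genes were higher. Only 1 endothelium gene was lower, against 11.0% of all genes higher and 14.2% lower. At 35 days the high dose gave 0 higher in each list and 2 fibroblast genes lower, or 0 without the 49-day oil arrays, against 0.877% of all genes lower.

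The summed levels show the same arrays high as for Clca1 at 35 days. For endothelium they were 109 to 115 after DES 1 µg, 55.9 to 59.3 after oil and 47.9 to 51.5 after DES 100 µg, and at 49 days 79.7 to 87.8, 68.5 to 74.2 and 56.3 to 71.0. For fibroblasts they were 1791 to 1868, 1006 to 1057 and 746 to 873 at 35 days. At 49 days the fibroblast sums were 1866 to 2331, 1314 to 1453 and 1380 to 1535. Adipocyte genes stood at 565 to 619, 315 to 317 and 309 to 322 at 35 days, and at 684 to 711, 383 to 400.3 and 479.5 to 581 at 49 days. The low-dose arrays were the highest of their age in all of these sums. Cdh5, an endothelial cadherin, and Fbn1 were not above background on any array. The part of stromal RNA in the Cd52 and Clca1 results was not tested.

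**Figure D4:**
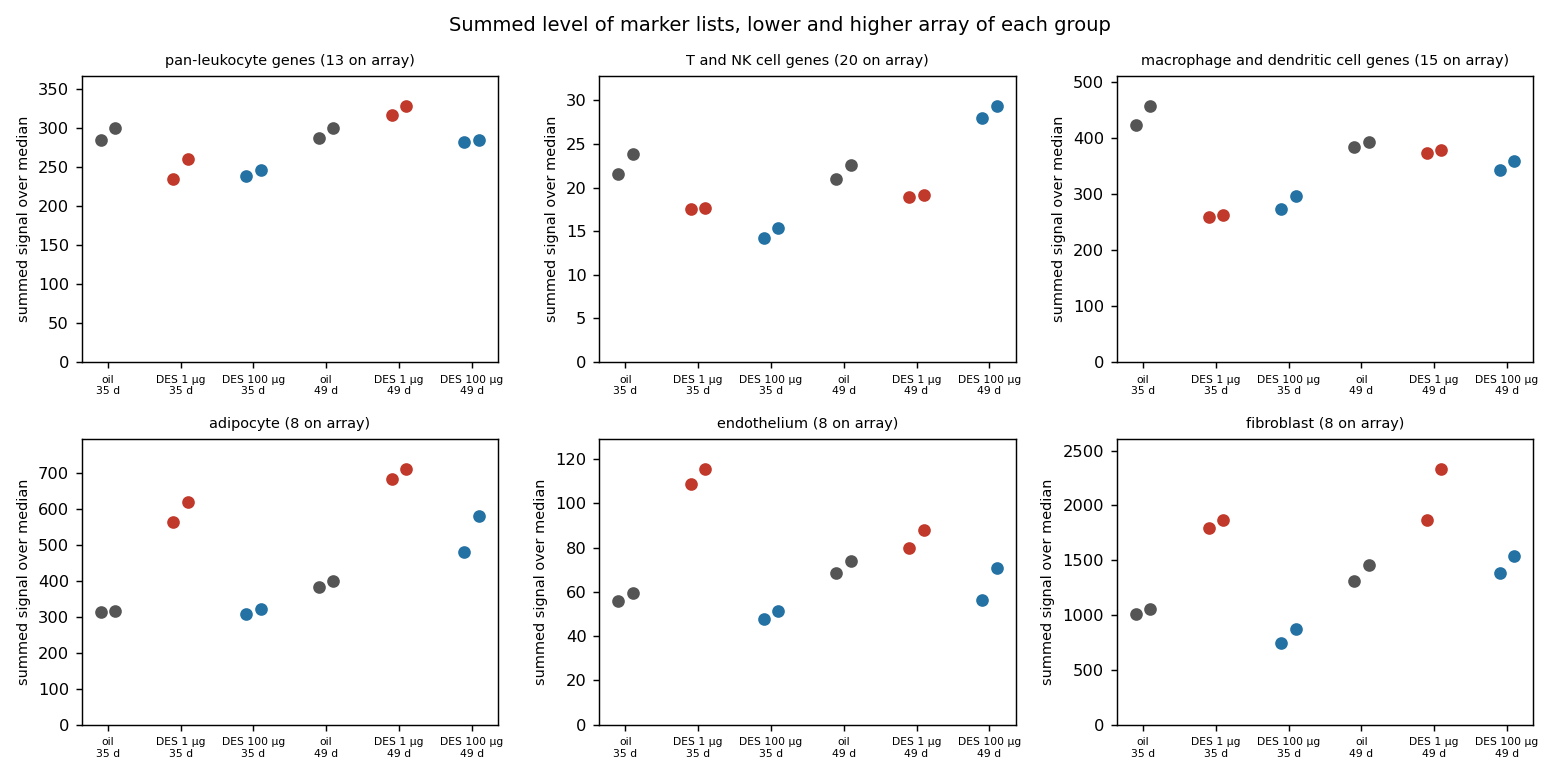
Summed signal over the array median of 6 marker lists, with the lower and the higher array of each group as points and axes that start at 0. The adipocyte, endothelium and fibroblast sums are highest after DES 1 µg at both ages, as are Cd52 and Clca1, while the sum of T and NK cell genes is highest after DES 100 µg at 49 days (28.0 to 29.3).

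Epithelial genes called after DES 1 µg against oil were mostly lower, while calls of milk genes went in both directions. Of 9 luminal genes, 3 fell after DES 1 µg at 35 days (median -0.49), and 1 rose and 5 fell at 49 days (median -0.63). Of 7 basal genes, 1 fell at 35 days and 2 at 49 days. Of all genes, 3.17% were higher and 4.25% lower after DES 1 µg at 35 days. At 49 days 12.7% were higher and 19.1% lower. Between the doses, 3 of 9 luminal genes were higher after the high dose and 0 lower at each age. Of basal genes, 1 was higher and 0 lower at 35 days, and 2 were higher and 1 lower at 49 days. Over all genes these shares were 4.15% and 3.85% at 35 days, and 3.63% and 3.17% at 49 days. With the 49-day oil arrays left out of the fit, 2 luminal and 1 basal genes were higher at 49 days and 0 lower. Milk and alveolar genes numbered 6 higher, 5 of them detected in both groups, and 3 lower of 19 after DES 1 µg at 35 days, led by the caseins Csn1s2a (5.56 ± 0.25, limma adjusted p = 5.2e-05) and Csn2 (4.58 ± 0.21, limma adjusted p = 5.2e-05). At 49 days, when Cd52 and Clca1 were still above oil, 1 milk gene, not detected in both groups, rose and 8 fell after DES 1 µg, Wap among them (-1.98 ± 0.24, limma adjusted p = 0.0015). Between the doses at 49 days 10 of 19 were higher after the high dose and 0 lower (median 0.72), against 3.63% of all genes higher. After DES 100 µg at 35 days, when both genes were at their lowest, 0 of 19 milk genes passed against oil, while 1.28% of all genes did, 0.405% higher and 0.877% lower. Against DES 1 µg at that age 3 milk genes were higher and 7 lower, 6 of them detected in both groups, where 4.15% of all genes were higher and 3.85% lower.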

How the data were processed

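Per the labels, RNA of microdissected end buds was amplified, labelled with Cy3 and hybridized to Agilent rat arrays. Agilent Feature Extraction 9.1.3.1 is named in the submitters' processing notes. The deposited value table holds each spot's intensity. It equalled the scanner files of 10 arrays within 0.497%. The authors' normalized table, also deposited, holds ratios: signal over array median, over the probe's mean in oil at 35 days. The genome build remains not given in the sources used here.

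Intensities were divided by the array median, floored at 0.01 and taken to log2. Of 20499 probes, 13254 had the authors' detection flag on both arrays of at least 1 group. Probes were named through the RefSeq gene table (6547 probes by accession, 2470 by symbol, 743 by older symbol, 10739 unnamed). The brightest probe was kept for each gene, a choice for 856 genes, which left 11862 to test, 5626 named. All 12 arrays were fitted with a mean for each group in limma 3.58.1 (R 4.3.3), with Benjamini-Hochberg adjustment over all 11862 and a threshold of 0.05. The number of arrays limits the precision.

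The genes and lists were chosen with earlier results of these data known, including the rise of Cd52 at 49 days. Named list genes are up to 3 with the smallest p of each list and comparison. Alternatives covered scaling, background correction, floor, detection filter, left-out arrays, replicate number, scan day, array signal, arrays of the same age and the authors' normalized table. The fit was tested on simulated data.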

Additional observations from a re-analysis of the deposited data

Results flagged for a closer look

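For Clca1, the difference of DES 100 µg from oil went one way at 35 days and the other at 49 days. It was -0.78 at 35 days, with both high-dose arrays below both oil arrays, and 0.41 at 49 days, with both above. The change between the ages was 1.19 on the log2 scale. This difference was not tested, because the 35-day arrays were used to choose the gene. With 2 arrays a group, no array could be examined for lying far from the others.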

How the results depend on the processing

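Differences are on the log2 scale. None of the differences of Cd52 or Clca1 changed sign under the alternatives run. Normexp background correction, run on the 10 arrays with scanner files, gave Cd52 1.47 for DES 1 µg against oil, -0.40 for DES 100 µg against oil and -1.87 between the doses at 35 days, and Clca1 -0.65 for DES 100 µg against oil at 35 days. With 1 array left out at a time, Cd52 at 35 days ranged from -4.50 to -3.59 between the doses and from -1.78 to -0.87 for DES 100 µg against oil. Clca1 at 35 days ranged from 3.64 to 3.99 for DES 1 µg against oil and from -0.96 to -0.60 for DES 100 µg against oil. At 49 days Cd52 lost its call between the doses with scan day as a block (-4.57, adjusted p = 0.32) and for DES 100 µg against oil with array signal as a covariate (-1.54, adjusted p = 0.078), and the cause was not tested, except that the block left 1 residual degree of freedom.

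Clca1 between the doses at 49 days passed with 75th percentile scaling (-0.54, adjusted p = 0.027), quantile normalization (-0.64, adjusted p = 0.026), a floor of 0.1 (-0.53, adjusted p = 0.0498) and the signal covariate (-0.60, adjusted p = 0.030). For DES 100 µg against oil it passed with 75th percentile scaling (0.49, adjusted p = 0.018) and quantile normalization (0.67, adjusted p = 0.012). With the replicate block both passed (-0.53, adjusted p = 0.047, and 0.41, adjusted p = 0.047). Over 15 pairs of groups, deviations of arrays with the same number correlated from -0.14 to 0.43 and above 0.1 in 6, so the numbers were not taken to pair the arrays.

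At 35 days, 880 genes passed for DES 1 µg against oil, 152 for DES 100 µg against oil and 949 between the doses. These counts became 343 to 705, 52 to 75 and 449 to 906 with 1 array left out, 333, 25 and 455 with arrays of that age only, and 319, 51 and 409 with normexp. With the signal covariate the first was 1661. At 49 days the counts were 3776, 2983 and 806. They became 1546 to 2179, 1166 to 2467 and 254 to 525 with 1 array left out, and 2072, 498 and 1803 with the signal covariate. Between the doses at 49 days the count was 301 with arrays of that age only and 418 with normexp. With scan day as a block 0 genes passed in limma in each of the 4 comparisons possible, while 1328, 1145 and 2400 at 35 days and 1691 between the doses at 49 days had an unadjusted p under 0.05. Without the block the same 10 arrays gave no change of call for Cd52 or Clca1. Other probes could not be tried, since each gene has 1. Normexp and the scan day block were not run against oil at 49 days, for want of scanner data. Cd52 after DES 100 µg lies near the limit of detection, so its low levels are the least certain.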

Other observations

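The genes next to Cd52 and Clca1 on the chromosome, 5 protein-coding genes on each side in GRCr8, were chosen by position, after the values of Cd52 and Clca1 were known. Near Cd52 on chromosome 5, Hmgn2, Dhdds, Ubxn11 and Sh3bgrl3 were tested. Ubxn11, with a UBX domain, was lower after DES 100 µg than after DES 1 µg at 49 days (-1.47 ± 0.21, limma adjusted p = 0.0060), in the direction of Cd52. Hmgn2, a nucleosome-binding protein, rose after DES 1 µg against oil at 49 days (0.62 ± 0.14, limma adjusted p = 0.014). Sh3bgrl3 passed in no comparison between treatments. Near Clca1 on chromosome 2, Selenof, Sh3glb1 and Ccn1 were tested. Selenof rose against oil at 49 days after DES 1 µg (0.58 ± 0.19, limma adjusted p = 0.045) and after DES 100 µg (0.65 ± 0.19, limma adjusted p = 0.037). Ccn1, a matricellular protein of the immediate early class, rose after DES 1 µg against oil at 49 days (2.61 ± 0.14, limma adjusted p = 9.9e-05). It was lower after the high than after the low dose at that age (-1.76 ± 0.14, limma adjusted p = 0.00049). At 35 days, where Clca1 was 14.1-fold higher after the low dose, Ccn1 rose by less (0.92 ± 0.14, limma adjusted p = 0.0069), and it rose after the high dose too (1.06 ± 0.14, limma adjusted p = 0.011).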
